A study of Homo sapiens with 4 samples.

Results

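RNA was profiled in K1, a human line of papillary thyroid carcinoma cells, carrying a control short hairpin RNA (shCtrl, genotype Ctrl) or a hairpin directed against the transcription factor TBX3 (shTBX3, genotype TBX3 knockdown). Each hairpin group had a library labelled replicate 1 and a library labelled replicate 2. The 2 replicate 2 libraries were set here against the 2 replicate 1 libraries, so that each side of the comparison held 1 shCtrl and 1 shTBX3 library and all 4 libraries of the study were used. The comparison asked which gene programs differed with the replicate number in both hairpin groups alike. All cultures were grown in RPMI 1640 with fetal bovine serum, total RNA was extracted with Trizol, and libraries were sequenced on the BGISEQ-500. The labels do not say what the replicate numbers stand for (a culture, a passage, a day or a library preparation), whether the hairpin cells were clones or pools, or which hairpin sequences were used. No label ties the libraries to separate cultures, so the p-values here cover the spread among 4 libraries only. Within a replicate number, that spread lies between 1 shCtrl and 1 shTBX3 library and so includes the hairpin difference. The rest of it may be technical. The thyroid genes TG and TSHR were at or below 0.31 FPKM in every library. CDX2, an intestinal transcription factor, lay between 116.78 and 147.75. Neither tissue's markers were uniform. Of 8 thyroid markers, 2 passed the expression filter given below, PAX8 (1.20 to 1.88) and SLC5A5 (2.42 to 3.28). Of 11 colon markers, 7 passed it, while CDX1, FABP1, MUC2 and GPA33 were at or below 0.58. The identity of the line was not tested.

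The deposited values were FPKM, fragment numbers scaled to the length of the transcript and to the total of the library. Of 20510 genes in the table, 13924 reached 1 FPKM in 2 or more of the 4 libraries and were tested, and 11903 of these had a protein-coding transcript. Just inside that limit, ABCB6 had a second highest FPKM of 1.00, and just outside it CCDC114 had 0.99. Differences are given as log2(FPKM + 1) in replicate 2 minus replicate 1, a scale on which the change of a weakly expressed gene comes out smaller. FPKM values are listed in the order shCtrl, then shTBX3.

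Cells grown in culture adjust a common set of programs to the supply of nutrients and growth signals. When amino acids run short or proteins misfold, the integrated stress response slows general translation and lets the transcription factor ATF4 switch on amino acid synthesis and import. Ribosome assembly and mitosis are the main outlays of a growing and dividing cell, and MYC and the cell cycle machinery drive them, while cyclin-dependent kinase inhibitors hold them back.

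Gene programs lay on both sides of the comparison. In the replicate 2 libraries, ATF4 and amino acid response genes, cell cycle inhibitors, Wnt targets, ID genes and several hypoxia and immediate early genes were higher. Ribosome assembly factors, mitotic and DNA replication genes, heat shock chaperones and actin genes were lower. Mitochondrial ribosomal proteins, proteasome subunits and splicing factors were lower by smaller amounts. Most differences were below 1.5-fold: of the protein-coding genes tested, 286 were at least 1.5-fold higher and 78 at least 1.5-fold lower on the log2(FPKM + 1) scale. Cytosolic ribosomal proteins, oxidative phosphorylation and glycolysis had medians near 0.

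Gene by gene, few of these differences could be separated from the spread within a replicate number. With the replicate number as the only term, limma with Benjamini-Hochberg adjustment called 1 of 13924 genes at an adjusted p under 0.05 (0.00718%), the small nucleolar RNA gene SNORD95, and it called 0 genes lower. At an unadjusted p under 0.05 there were 886 higher (6.36%) and 687 lower (4.93%). In that fit, the difference between the hairpins counts as spread. With the hairpin as a second term, limma called 45 genes (0.323%), 30 higher and 15 lower. The same terms fitted to the protein-coding genes alone, a fit chosen after seeing the data and called the hairpin-adjusted coding fit below, called 1255 of 11903 genes (10.5%), of which 826 were higher (6.94%) and 429 lower (3.6%). The calls of this fit lean on the pooled spread of all genes: it had 1 residual degree of freedom and a prior worth 22.4, against 4.66 when non-coding genes were included. For a single gene, the exact permutation test of 2 libraries against 2 cannot go below a two-sided p of 0.3333. Both replicate 2 values lay above both replicate 1 values in 3085 genes (22.2% of those tested) and below them in 3228 (23.2%). The members of each program are read against these shares.

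The differences by replicate number were seen separately in each hairpin group. Across all 13924 genes tested, the difference within shCtrl and the difference within shTBX3 correlated with Pearson's r = 0.260 and Spearman's rho = 0.426. Across the 11903 protein-coding genes, the values were r = 0.488 and rho = 0.488, and at a mean FPKM of at least 10 (6608 genes) r = 0.417 and rho = 0.517. The differences within the 2 hairpin groups share no library. Genes are not independent replicates, and all of them share the depth and base composition of the same 4 libraries, so no p is attached. The sign was the same in both hairpin groups for 65.5% of the genes tested, where 50.8% of genes were positive in shCtrl and 49.7% in shTBX3. The median difference over all genes tested was -3.305e-05, with quartiles at -0.15 and 0.16.

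**Figure D1:**
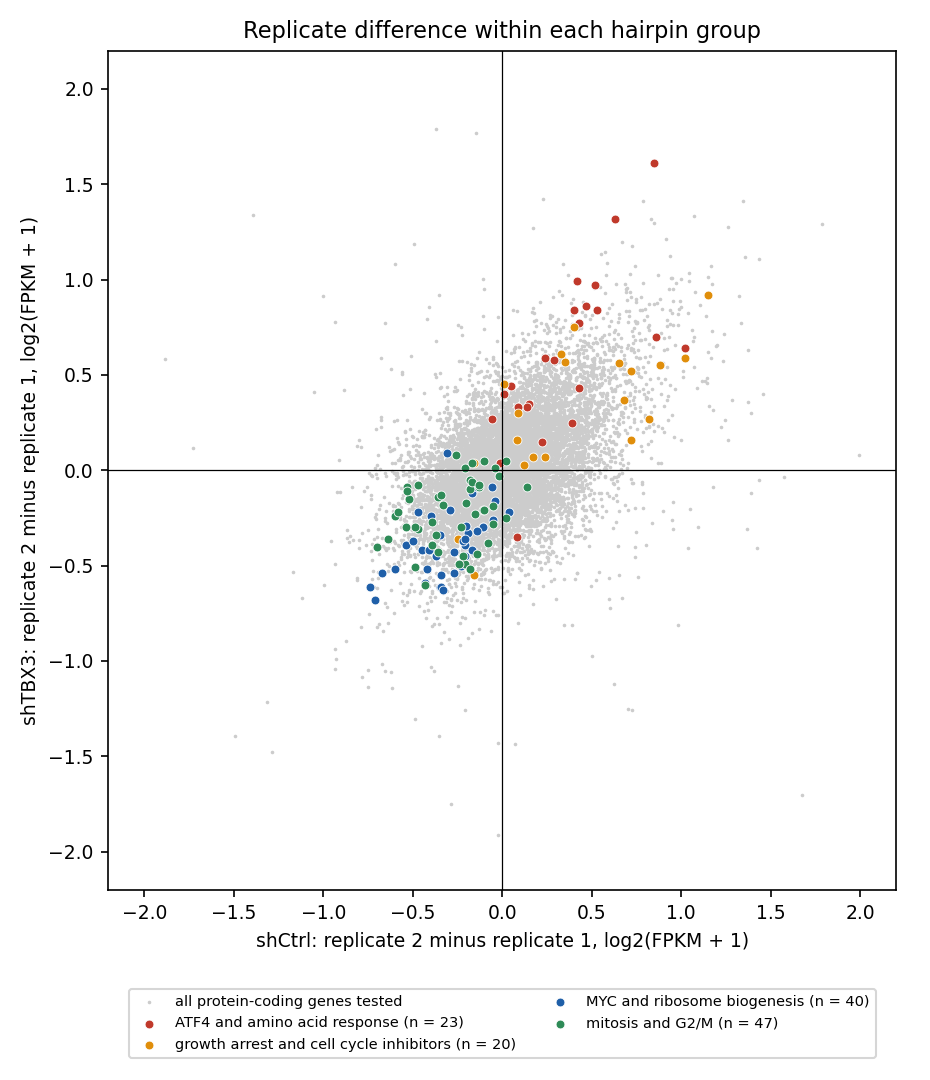
Each point is a gene, with its replicate 2 minus replicate 1 difference in log2(FPKM + 1) within shCtrl (x axis) and within shTBX3 (y axis). Grey points are all protein-coding genes tested, coloured points are the tested members of 4 gene lists, and 8 coding genes lie outside the axes, which end at 2.2 in each direction. ATF4 response genes (red) and growth arrest genes (orange) lie mostly at the upper right, ribosome assembly (blue) and mitosis genes (green) in the lower left.

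ATF4 and amino acid response genes were the most one-sided of the programs higher in replicate 2. Of 26 genes in this list, 23 were tested. In 18 of the 23 both replicate 2 values exceeded both replicate 1 values, and in 0 both were lower, against 22.2% and 23.2% of all genes tested. By unadjusted p under 0.05, 11 were higher and 0 lower, and 12 were called higher in the hairpin-adjusted coding fit. The median difference was 0.43 (0.39 within shCtrl and 0.58 within shTBX3). Single members named here and in the following lists are those with the smallest p or the best known role, chosen after their values were seen. None of the list members reached an adjusted p of 0.05 with the replicate number as the only term.

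ATF4 itself had 275.93 and 243.86 FPKM in the replicate 1 libraries and 371.51 and 417.41 in the replicate 2 libraries. Both replicate 2 values were the higher ones, by 0.60 ± 0.12 (SE) with a limma adjusted p of 0.322. ASNS, which makes asparagine and is a classical ATF4 target, had the smallest p of the list, with 37.02 and 35.65 FPKM in replicate 1 and 67.94 and 58.45 in replicate 2. Its difference was 0.78 ± 0.12 (limma adjusted p = 0.221, and 0.0541 with the hairpin as a second term). Of the serine pathway enzymes, PHGDH, which catalyses the first step, stood at 89.39 and 69.43 against 129.88 and 125.48 (0.69 ± 0.14). The other steps differed less: PSPH by 0.24 ± 0.11, PSAT1 by 0.24 ± 0.12 and SHMT2 by 0.21 ± 0.11. PCK2, the mitochondrial phosphoenolpyruvate carboxykinase, was at 28.04 and 18.64 against 39.27 and 34.69 (0.67 ± 0.21).

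The stress effectors on the same list covered a wider range. DDIT4, an inhibitor of the growth kinase complex mTORC1, had 29.05 and 18.31 FPKM in replicate 1 and 53.08 and 57.83 in replicate 2, a difference of 1.23 ± 0.22 (limma adjusted p = 0.285). SESN2, another inhibitor of mTORC1, was at 7.54 and 4.83 against 10.45 and 10.61. CHAC1, which degrades glutathione, was at 9.73 and 5.02 against 15.59 and 14.08 (0.98 ± 0.28). For these 3 genes the shTBX3 pair was further apart than the shCtrl pair. The secreted stress cytokine GDF15 showed the other order, with 34.83 and 49.41 against 71.79 and 77.75 (0.83 ± 0.18). TRIB3, a pseudokinase that feeds back on ATF4, differed by 0.41 ± 0.12. DDIT3, which encodes the stress factor CHOP, had overlapping values (9.01 and 5.85 against 10.13 and 7.71), as did ATF3 (0.70 and 1.72 against 0.63 and 2.29).

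The C/EBP-ATF response element, through which ATF4 acts, was looked for as the letters TGATGNAAN on both strands of RefSeq promoters (GRCh38.p14, 250 bases before to 50 after the start). It was present in 3 of the 19 list members with a promoter in the table (15.8%), in 3.67% of all 27305 promoters and in 1.59% of the 10672 promoters of genes tested. The windows of the members ASNS (chr7:97872443-97872501, minus strand, 60 to 68 bases before the start) and CHAC1 (chr15:40953236-40953294, plus strand, 202 to 210 bases before the start, on the opposite strand of the promoter) are shown because both genes were higher in both replicate 2 libraries, with the matching letters in capitals, 5′ to 3′ along the gene.
ASNS: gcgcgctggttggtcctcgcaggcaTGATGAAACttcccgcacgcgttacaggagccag
CHAC1: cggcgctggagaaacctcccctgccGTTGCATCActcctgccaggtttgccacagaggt
The third match was in ATF3, whose libraries overlapped. A match is a description of the letters and shows no binding.

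Transfer of amino acids into cells and onto tRNAs was split. Of 15 amino acid transporters tested, 7 were higher without overlap and 4 lower, with a median of 0.11. SLC38A2, a neutral amino acid carrier that responds to amino acid supply, had 16.11 and 15.53 FPKM against 27.14 and 24.56 (0.67 ± 0.11, limma adjusted p = 0.259), while SLC7A5, the large neutral amino acid exchanger, was at 175.86 and 157.14 against 146.75 and 139.01 (-0.22 ± 0.10). Of 20 aminoacyl-tRNA synthetases, 6 were higher without overlap and 2 lower, with CARS (cysteine) at 23.01 and 25.57 against 38.44 and 33.94 and FARSA (phenylalanine) at 104.87 and 100.40 against 76.01 and 82.41. Their median was 0.22 within shCtrl and -0.06 within shTBX3. In the unfolded protein response list, 11 of 27 were higher without overlap and 4 lower, with a median of 0.05. XBP1, a transcription factor of this response, was at 56.63 and 37.80 against 82.48 and 68.41, and HERPUD1, which acts in the degradation of misfolded proteins, at 26.88 and 21.47 against 42.85 and 38.08. The chaperone CALR was lower, at 653.66 and 596.16 against 486.04 and 521.12.

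**Figure D2:**
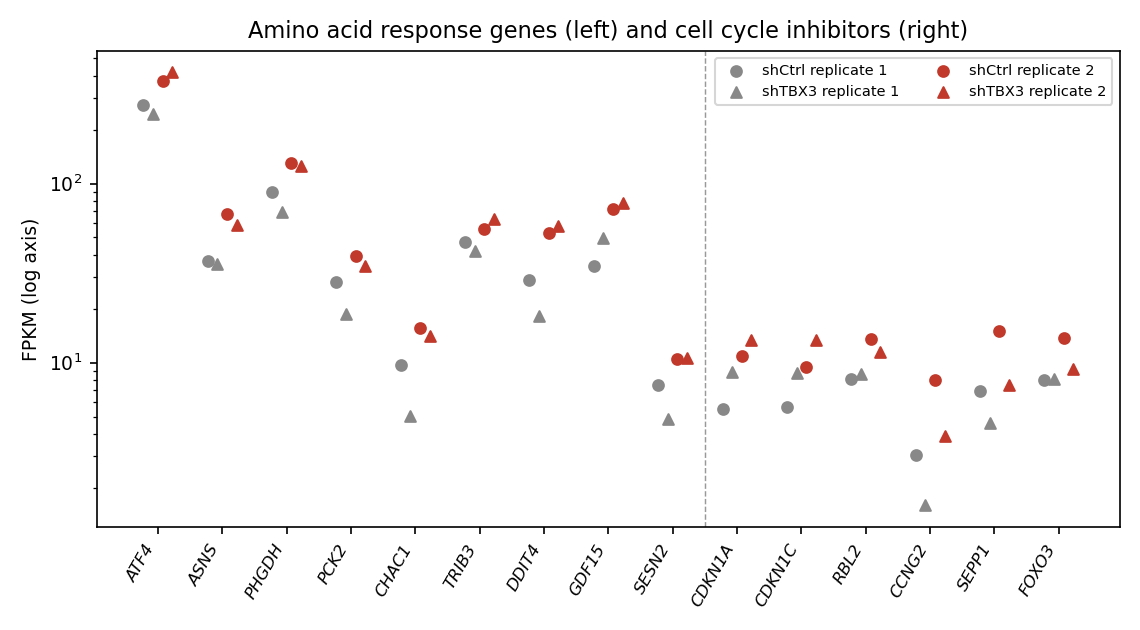
FPKM (log axis) of 9 ATF4 response genes (left of the dashed line) and 6 growth arrest genes (right) in each library, with replicate 1 in grey, replicate 2 in red, shCtrl as circles and shTBX3 as triangles. Both red symbols lie above both grey symbols for every gene shown; for CDKN1A and CDKN1C the triangles also lie above the circles of the same colour.

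Cell cycle inhibitors and other growth arrest genes were higher in replicate 2 as well. Of 24 genes in the list, 20 were tested, of which 14 were higher without overlap and 1 lower, the kinase inhibitor CDKN2D. At an unadjusted p under 0.05, 6 were higher and 0 lower, and 10 were called higher in the hairpin-adjusted coding fit. The median was 0.45 over all libraries, 0.34 within shCtrl and 0.33 within shTBX3.

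CDKN1C, which encodes the cyclin-dependent kinase inhibitor p57KIP2 named in the title of the series, had 5.64 and 8.75 FPKM in the replicate 1 libraries and 9.43 and 13.41 in the replicate 2 libraries. Both replicate 2 values were above both replicate 1 values, with a difference of 0.61 ± 0.25 (limma adjusted p = 0.445, 0.102 with the hairpin as a second term and 0.00222 in the hairpin-adjusted coding fit). The corresponding difference between shTBX3 and shCtrl over the same libraries was 0.51 (limma adjusted p = 0.852). CDKN1A, which encodes p21, was at 5.50 and 8.87 against 10.93 and 13.43, a difference by replicate number of 0.71 ± 0.23 and by hairpin of 0.44. The 2 kinds of difference rest on the same 4 libraries, and for both inhibitors the lowest value was that of shCtrl replicate 1 and the highest that of shTBX3 replicate 2. The third inhibitor of the family, CDKN1B (p27), was at 29.17 and 25.10 against 29.40 and 34.74 (0.23 ± 0.14), without overlap. Its shCtrl values were nearly level (29.17 and 29.40), and the difference lay mostly within shTBX3 (25.10 and 34.74).

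Other members of the arrest list are genes of quiescent cells. RBL2, a retinoblastoma relative that represses cell cycle genes in resting cells, stood at 8.08 and 8.63 FPKM in replicate 1 and at 13.51 and 11.45 in replicate 2 (0.52 ± 0.13). CCNG2, an unusual cyclin of arrested cells, was at 3.05 and 1.60 against 7.99 and 3.92 (1.04 ± 0.36). The FOXO transcription factors FOXO3 (7.98 and 8.15 against 13.81 and 9.20) and FOXO4 (0.86 and 0.82 against 2.06 and 1.61) were higher, while FOXO1 overlapped (3.83 and 4.62 against 3.31 and 4.78). BTG2, an antiproliferative gene, was at 4.54 and 4.21 against 6.30 and 7.75. TXNIP, a thioredoxin-binding protein that limits glucose uptake, overlapped and had hairpin groups far apart (55.36 and 28.55 against 98.76 and 34.52).

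Wnt targets and feedback genes were higher in 11 of 19 members without overlap and lower in 0, with a median of 0.30 (0.29 within shCtrl and 0.42 within shTBX3). NKD2, an antagonist of the pathway, had 7.97 and 7.30 FPKM against 15.64 and 13.91 (0.87 ± 0.12, limma adjusted p = 0.209). RNF43, a ubiquitin ligase that removes Wnt receptors, was at 36.40 and 35.35 against 51.20 and 49.30, and AXIN2, a feedback inhibitor, at 153.85 and 129.09 against 189.84 and 159.16. LGR5, a stem cell receptor of this pathway, overlapped at 30.66 and 44.29 against 32.75 and 41.79, as did ASCL2 (223.93 and 132.89 against 190.99 and 154.42).

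MYC belongs to the Wnt and immediate early lists here and was itself higher in replicate 2, at 106.43 and 104.58 FPKM against 130.64 and 148.61. Its difference was 0.40 ± 0.11 (limma adjusted p = 0.386). CCND1, which encodes cyclin D1, differed the other way, at 229.51 and 287.82 against 162.71 and 219.71 (-0.44 ± 0.19, limma adjusted p = 0.450), with both replicate 2 values the lower. CCND1 is in neither of these lists, so their counts leave it out.

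Immediate early and AP-1 genes are switched on within minutes of a growth signal. Of 23 tested, 12 were higher without overlap and 0 lower, with a median of 0.22. EGR1 was at 11.96 and 15.87 against 23.55 and 25.23 (0.78 ± 0.16), JUNB at 43.94 and 34.86 against 68.77 and 55.64, and JUND at 26.67 and 40.55 against 45.65 and 70.11. FOS, the best known of them, was near the limit of the filter and overlapped (1.22 and 1.44 against 1.03 and 1.31). CYR61, a secreted matrix protein and target of YAP, was lower within each hairpin group (12.86 to 6.57 in shCtrl, 24.90 to 12.90 in shTBX3), though the groups overlapped. Among 14 ERK feedback genes, 7 were higher without overlap and 3 lower, with a median of 0.06 within shCtrl (7 positive, 7 negative) and 0.42 within shTBX3 (10 positive, 4 negative). ETV5, an ETS factor, was at 9.53 and 8.60 against 16.37 and 20.66 (0.95 ± 0.15), and the phosphatase DUSP5 at 5.04 and 4.92 against 11.18 and 7.49. DUSP6, the cytoplasmic ERK phosphatase, was closer, at 26.45 and 28.80 against 29.23 and 33.70.

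The TGF-beta response list was higher in 10 of 16 members without overlap and lower in 0, with a median of 0.25. The ID genes of this list encode inhibitors of basic helix-loop-helix factors and respond to BMP signals. ID3 had 64.91 and 55.66 FPKM against 128.06 and 111.03 (0.98 ± 0.13), ID1 133.64 and 97.51 against 183.67 and 156.77 (0.57 ± 0.18) and ID2 82.34 and 86.17 against 109.11 and 104.95 (0.34 ± 0.09). PMEPA1, a direct TGF-beta target, differed by 0.04 ± 0.15, with overlap. BMP4, which encodes a ligand, overlapped at 319.55 and 231.04 against 312.67 and 211.03.

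In the hypoxia list, 13 of 23 members were higher without overlap and 3 lower, with a median of 0.20. NDRG1 was the furthest apart, at 7.61 and 7.36 FPKM against 22.24 and 16.99. VEGFA, the angiogenic growth factor, was at 20.55 and 21.21 against 27.27 and 36.82, and BNIP3L, a receptor for the removal of mitochondria, at 14.64 and 18.45 against 21.78 and 25.36. The glucose transporter genes SLC2A1 (109.42 and 81.71 against 81.28 and 70.00) and SLC2A3 (4.16 and 6.98 against 3.24 and 3.88) were lower. HIF1A, whose protein is regulated mainly by its stability, differed by 0.04 ± 0.10, and the 19 glycolysis genes had a median of 0.02 with 2 higher and 2 lower without overlap.

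The circadian clock list was mixed, with 8 of 15 members higher without overlap and 4 lower. NR1D1, which encodes the clock repressor REV-ERB alpha, was at 11.44 and 13.45 FPKM against 25.73 and 25.38, and DBP, an output factor of the clock, at 8.78 and 7.69 against 15.74 and 12.97. ARNTL, which encodes the activator BMAL1 and is a target of that repressor, was higher too (2.29 and 3.58 against 4.82 and 5.37). CLOCK, its partner, was lower (7.28 and 7.68 against 5.81 and 6.46), as were CRY1, CRY2 and PER2, while PER1 was higher.

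Epithelial junction and lipid genes gave smaller counts. Higher without overlap were 31.2% of claudin and tight junction genes, 38.9% of fatty acid synthesis genes and 32.3% of lysosome and autophagy genes. Over all genes tested, 22.2% were higher and 23.2% lower without overlap. Of 16 claudin and tight junction genes, 5 were higher without overlap and 1 lower, with a median of 0.21 within shCtrl (14 positive, 2 negative) and 0.00 within shTBX3 (8 positive, 8 negative). CLDN7 was at 76.65 and 87.69 against 105.80 and 114.23, and CLDN4 at 67.03 and 77.90 against 92.46 and 90.82. TJP3, a scaffold of tight junctions, was at 19.51 and 10.84 against 38.35 and 22.81. In fatty acid synthesis, 7 of 18 were higher without overlap and 2 lower, led by the regulator SREBF1 (74.69 and 61.06 against 115.42 and 94.58). ULK1, the kinase that starts autophagy, was at 8.74 and 6.88 against 14.76 and 13.63 (0.79 ± 0.15), in a lysosome and autophagy list of 31 members with 10 higher and 4 lower without overlap and a median of 0.08.

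**Figure D3:**
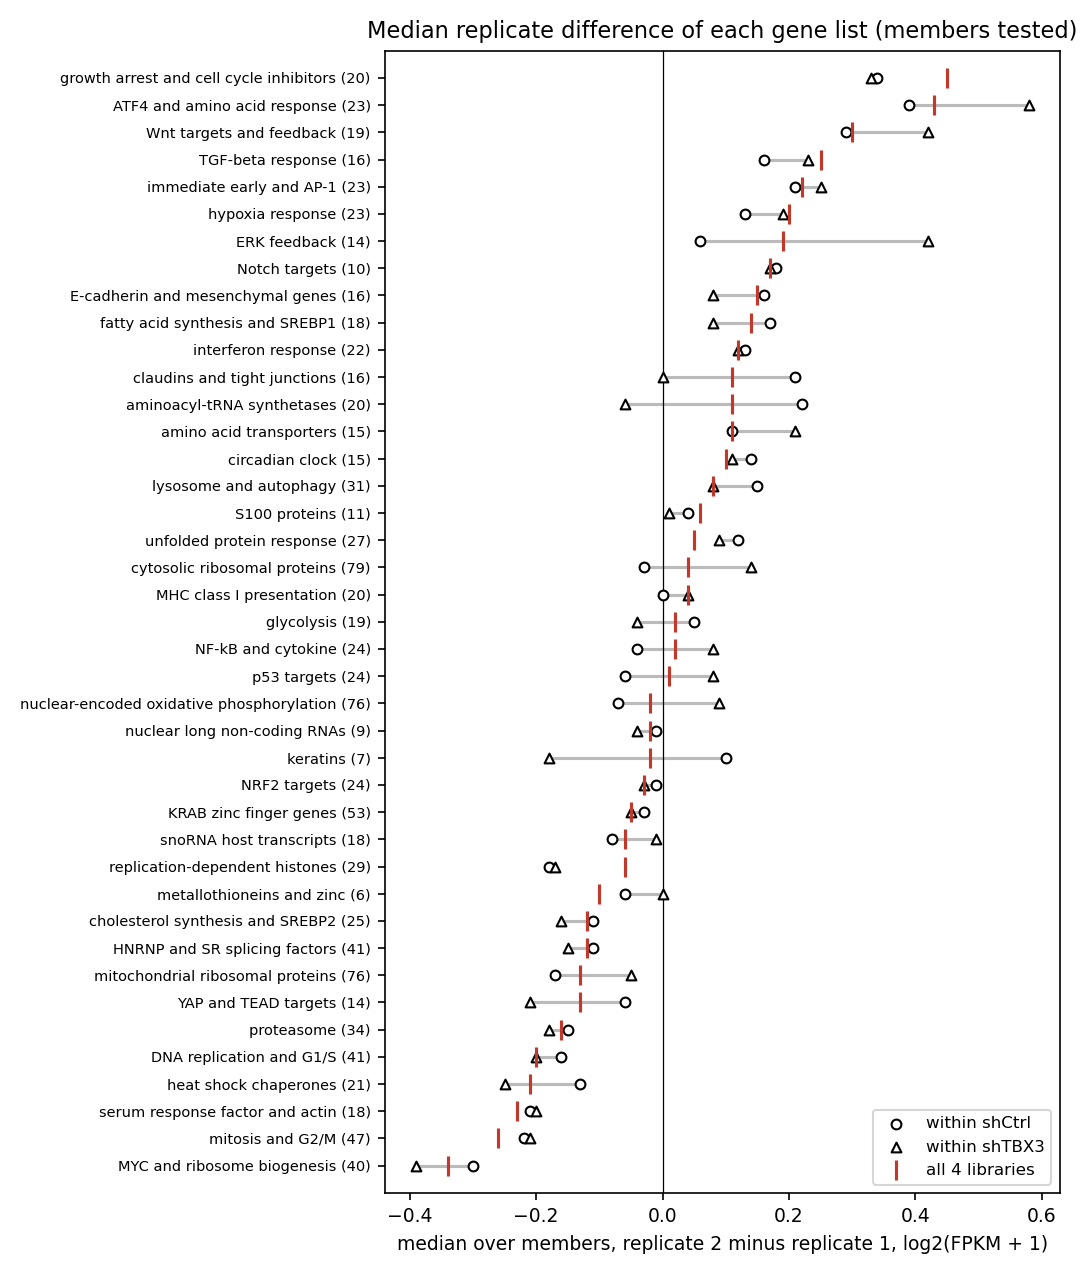
Median replicate 2 minus replicate 1 difference in log2(FPKM + 1) over the tested members of each gene list (number in brackets), within shCtrl (circles), within shTBX3 (triangles) and over all 4 libraries (red bars). Medians run from -0.34 for ribosome biogenesis to 0.45 for growth arrest genes, and for these lists the circle and the triangle lie on the same side of 0.

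Ribosome biogenesis was the most one-sided program of those lower in replicate 2. All 40 genes of the list were tested, 32 of them were lower without overlap and 0 higher, against 23.2% and 22.2% of all genes tested, and the fitted difference was negative in 40 of 40. At an unadjusted p under 0.05, 21 were lower and 0 higher, and 21 were called lower in the hairpin-adjusted coding fit. The median was -0.34 (-0.30 within shCtrl and -0.39 within shTBX3). The list was drawn up as MYC and ribosome biogenesis targets, and MYC itself was higher, as given above.

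The members act at successive steps of ribosome assembly. PNO1, a factor of the small subunit, had 46.86 and 46.79 FPKM in the replicate 1 libraries and 30.54 and 32.24 in the replicate 2 libraries, a difference of -0.56 ± 0.10 (limma adjusted p = 0.274, 0.0015 in the hairpin-adjusted coding fit). RRP9, a component of the U3 particle that processes the ribosomal RNA precursor, was at 47.52 and 51.20 against 28.05 and 33.16 (-0.68 ± 0.12). LYAR, a nucleolar zinc finger protein, was at 28.36 and 33.77 against 16.97 and 20.73 (-0.69 ± 0.15). Within each hairpin group these 3 differences lay between -0.74 and -0.52. NOP2, a methyltransferase of the large subunit RNA, was at 65.17 and 73.84 against 51.13 and 50.22, and the helicase DDX21 at 45.40 and 49.24 against 33.71 and 34.04. NCL, the abundant nucleolar protein nucleolin, overlapped at 229.38 and 301.01 against 212.36 and 244.48 (-0.20 ± 0.16).

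The E-box CACGTG, to which MYC binds, was found in the promoters of 10 of the 32 list members with a promoter in the table (31.2%), in 7.43% of all promoters and in 10.0% of those of genes tested; the letters read the same on both strands. The ribosome's own proteins did not go with the assembly factors. Of 79 cytosolic ribosomal protein genes, 19 were higher without overlap and 6 lower, with a median of 0.04 (-0.03 within shCtrl and 0.14 within shTBX3). RPL3 was at 1036.43 and 1083.66 against 1256.05 and 1185.26. Mitochondrial ribosomal proteins were lower in 36 of 76 and higher in 4 without overlap, with a median of -0.13 (-0.17 within shCtrl and -0.05 within shTBX3). Of these, MRPL47 (33.67 and 32.85 against 24.35 and 24.47) had the smallest p.

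**Figure D4:**
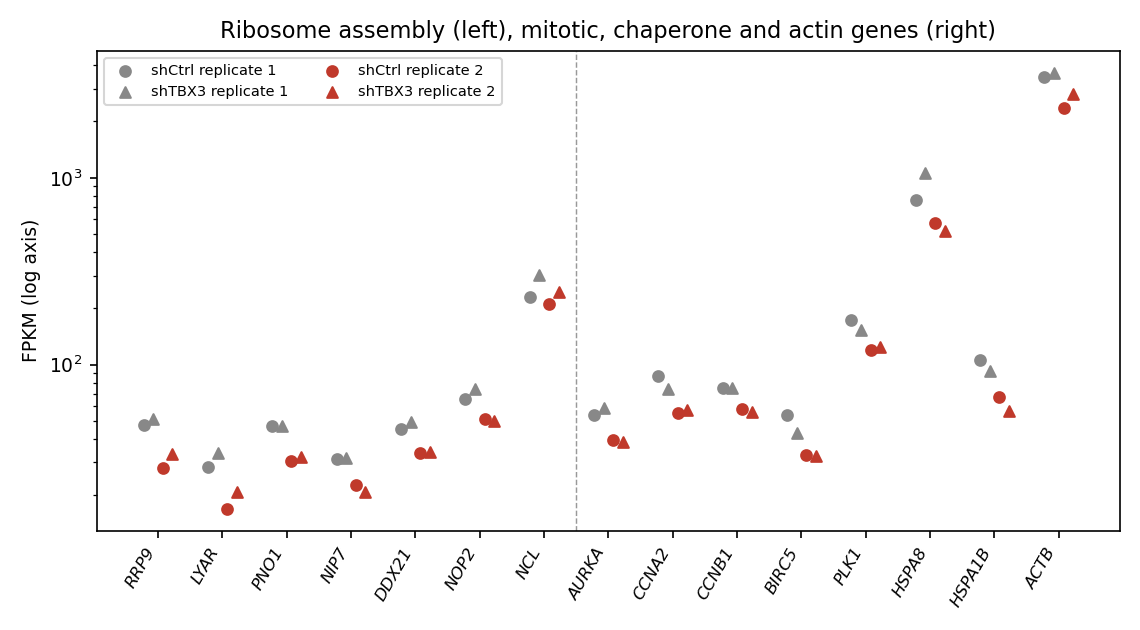
FPKM (log axis) of 7 ribosome assembly genes (left of the dashed line) and of 5 mitotic genes, 2 HSP70 genes and ACTB (right) in each library, with replicate 1 in grey, replicate 2 in red, shCtrl as circles and shTBX3 as triangles. Both red symbols lie below both grey symbols for every gene shown except NCL, whose values overlap.

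Mitosis and G2/M genes were lower in replicate 2 in 33 of 47 members without overlap and higher in 1, with a negative difference in 45 of 47. An unadjusted p under 0.05 was reached by 15 lower and 0 higher members, and 14 were called lower in the hairpin-adjusted coding fit. The median was -0.26 (-0.22 within shCtrl and -0.21 within shTBX3). In bulk samples, fewer cells in mitosis and less RNA of these genes per cell cannot be told apart, and this holds for every program here.

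AURKA, a kinase of the spindle poles, had the smallest p, with 53.59 and 58.96 FPKM in replicate 1 and 39.49 and 38.59 in replicate 2 (-0.51 ± 0.10, limma adjusted p = 0.323). The cyclins CCNA2 (86.88 and 73.92 against 55.36 and 57.42) and CCNB1 (74.65 and 75.03 against 57.79 and 55.57) went with it. BIRC5, which encodes survivin of the chromosomal passenger complex, was at 53.97 and 43.03 against 32.84 and 32.39. PLK1, a master kinase of mitosis, was at 174.40 and 153.77 against 119.52 and 125.12 (-0.42 ± 0.11), and CDC20, the activator of the ligase that ends metaphase, at 301.15 and 275.21 against 209.78 and 247.45 (-0.34 ± 0.12). For PLK1 and CDC20 the shCtrl pair was further apart than the shTBX3 pair.

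The cell cycle homology region, a promoter element of genes that peak in G2 and mitosis, was looked for as TTTGAA on both strands. It was found in 29 of the 40 list members with a promoter in the table (72.5%), in 15.4% of all promoters and in 9.71% of those of genes tested. PLK1 (chr16:23678835-23678888, plus strand, 24 to 29 bases before the start) and CDC20 (chr1:43358891-43358946, plus strand, 60 to 65 bases before the start) are shown as examples, with the matching letters in capitals.
PLK1: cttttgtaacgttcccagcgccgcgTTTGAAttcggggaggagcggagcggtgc
CDC20: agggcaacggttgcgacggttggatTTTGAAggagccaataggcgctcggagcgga

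DNA replication and G1/S genes were lower by less: 22 of 41 were lower without overlap and 0 higher, 5 at an unadjusted p under 0.05, with a negative difference in 40 of 41 and a median of -0.20 (-0.16 within shCtrl and -0.20 within shTBX3). RRM2, a subunit of the enzyme that makes deoxyribonucleotides, was at 160.28 and 146.69 against 122.01 and 111.42. ORC6, of the origin recognition complex, was at 30.28 and 34.35 against 23.24 and 23.30. PCNA, the sliding clamp, differed by -0.20 ± 0.10. Replication-dependent histones were split, with 5 of 29 higher and 9 lower without overlap.

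Heat shock chaperones were lower in 14 of 21 members without overlap and higher in 2, with a median of -0.21 (-0.13 within shCtrl and -0.25 within shTBX3). Of these, 6 lower and 1 higher had an unadjusted p under 0.05. HSPA8, the constitutive HSP70, had 758.23 and 1063.33 FPKM in replicate 1 and 575.64 and 518.78 in replicate 2 (-0.72 ± 0.18). HSPA1B, the inducible HSP70, was at 106.24 and 92.22 against 67.09 and 56.45 (-0.68 ± 0.13); its near-identical copy HSPA1A is listed at 2.22 and 2.26 against 3.41 and 1.86, and fragments of the pair may have been divided between them by the quantifier. The HSP40 cochaperone DNAJA1 was at 43.41 and 51.54 against 32.65 and 31.64. HSPB1, the small heat shock protein HSP27, was the exception with the smallest p, at 604.86 and 755.04 against 910.01 and 962.70 (0.47 ± 0.14). The HSP90 genes HSP90AA1 and HSP90AB1 overlapped, with differences of -0.04 ± 0.12 and -0.07 ± 0.17.

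The heat shock element was looked for as GAANNTTC, which reads the same on both strands. It was present in 6 of the 20 list members with a promoter in the table (30.0%), in 6.87% of all promoters and in 4.62% of those of genes tested. The windows of HSPA1B (chr6:31827608-31827665, plus strand, 98 to 105 bases before the start), HSPA8 (chr11:123062154-123062211, minus strand, 43 to 50 bases before the start) and HSPB1 (chr7:76302466-76302523, plus strand, 175 to 182 bases before the start) are set side by side because HSPB1 holds the same letters and differed in the opposite direction.
HSPA1B: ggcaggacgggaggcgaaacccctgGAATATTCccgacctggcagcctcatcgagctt
HSPA8: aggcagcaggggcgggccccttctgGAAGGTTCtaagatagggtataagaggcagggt
HSPB1: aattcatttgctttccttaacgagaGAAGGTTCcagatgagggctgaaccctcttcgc

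Actin and other targets of serum response factor were lower in 10 of 18 members without overlap and higher in 0, with a median of -0.23. ACTB was at 3474.81 and 3654.29 against 2354.19 and 2802.50 (-0.47 ± 0.13), and ACTG1 at 2261.42 and 1922.71 against 1579.07 and 1449.46 (-0.46 ± 0.12). Other actin regulators were level, with CFL1 at 0.03 ± 0.13 and PFN1 at -0.04 ± 0.11.

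Proteasome subunits and splicing factors were lower by small amounts. In the hairpin-adjusted coding fit, 1 proteasome gene and 2 splicing factors were called lower, where 3.6% of all protein-coding genes tested were. Of 34 proteasome genes, 21 were lower without overlap and 1 higher, with a median of -0.16 and 4 at an unadjusted p under 0.05. Of 41 HNRNP and SR splicing factors, 16 were lower and 3 higher, with a median of -0.12; HNRNPAB was at 278.20 and 270.57 against 189.47 and 209.86, and SRSF5 was higher (78.02 and 84.75 against 96.45 and 98.39).

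Of the lists not described above, 3 had larger medians: Notch targets (0.17), E-cadherin and mesenchymal genes (0.15) and YAP and TEAD targets (-0.13). In the last, 1 of 14 members was higher and 4 lower without overlap. The programs that follow had medians between -0.12 and 0.12. Oxidative phosphorylation genes encoded in the nucleus had 12 of 76 higher and 13 lower without overlap (median -0.02), NF-kB and cytokine genes 4 of 24 higher and 5 lower (0.02), and p53 targets 8 of 24 higher and 6 lower (0.01). Interferon response genes had 4 of 22 higher and 2 lower (0.12), MHC class I presentation 0 of 20 higher and 3 lower (0.04), NRF2 targets 6 of 24 higher and 10 lower (-0.03), cholesterol synthesis 4 of 25 higher and 6 lower (-0.12) and KRAB zinc finger genes 4 of 53 higher and 12 lower (-0.05). Of the list of genes encoded by the mitochondrial genome, 0 were found in the table by symbol, so none could be tested.

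Single genes were also named by a rule that took, in each direction, the protein-coding genes of smallest p among those without overlap whose higher replicate number averaged 5 FPKM or more. All of them missed the adjusted threshold with the replicate number as the only term. TNS4, a tensin of focal adhesions, was the first of the higher genes, with 81.96 and 71.91 FPKM in the replicate 1 libraries and 173.37 and 182.80 in the replicate 2 libraries. Its difference was 1.20 ± 0.11 (limma adjusted p = 0.0764, and 0.0315 with the hairpin as a second term). BBC3, which encodes the pro-apoptotic protein PUMA, was at 7.43 and 8.73 against 18.01 and 18.18 (1.08 ± 0.12). RASSF10, of the Ras association domain family, was at 8.12 and 8.18 against 18.27 and 16.57 (1.01 ± 0.12). PNRC1, a coregulator of nuclear receptors, had the largest difference of the 10 higher genes, at 8.34 and 6.29 against 22.76 and 18.38 (1.38 ± 0.18). NDRG1, NR1D1 and ID3, given above with their lists, were also among them, with differences of 1.27 ± 0.16, 0.99 ± 0.12 and 0.98 ± 0.13. HSPG2, which encodes the basement membrane proteoglycan perlecan, was at 7.94 and 7.40 against 14.56 and 14.12, the alarmin cytokine gene IL33 at 6.82 and 6.53 against 14.07 and 12.34, and WBSCR27 at 3.33 and 3.83 against 7.61 and 7.93.

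The 10 lower genes included 2 that share nearly all of their sequence with another gene. U2AF1L5, a copy of the splicing factor gene U2AF1, was at 6.56 and 6.43 FPKM in replicate 1 and 0.44 and 0.46 in replicate 2 (-2.37 ± 0.14, limma adjusted p = 0.0618). U2AF1 itself was at 110.32 and 120.98 against 95.79 and 95.55. SMN2, a copy of the motor neuron survival gene SMN1, was at 17.34 and 16.62 against 9.63 and 8.98, while SMN1 was at 24.08 and 25.35 against 26.12 and 34.02. Both copies are uncertain, as the quantifier may have divided fragments between the near-identical genes. OLR1, the receptor for oxidised low-density lipoprotein, had the next smallest p, at 119.50 and 149.04 against 68.96 and 69.68 (-0.94 ± 0.13). RBM14, an RNA-binding protein, was at 37.89 and 41.73 against 22.24 and 24.38 (-0.75 ± 0.11), and SFPQ, another, at 210.70 and 213.93 against 135.24 and 147.82 (-0.58 ± 0.10). Both are proteins of the paraspeckle, a nuclear body built on the long RNA NEAT1. NEAT1, looked at for this reason after these values were seen, was higher, at 67.25 and 65.01 against 109.08 and 103.54 (0.68 ± 0.10, limma adjusted p = 0.202). MALAT1, its neighbour, was lower, at 153.78 and 158.53 against 138.24 and 129.02. PTRF, a coat protein of caveolae, was at 49.99 and 56.44 against 31.64 and 33.99. TFRC, the transferrin receptor, was at 39.13 and 42.31 against 26.72 and 25.85. TUBB6, a beta tubulin, was at 107.63 and 110.15 against 73.19 and 75.68. RPF2, an assembly factor of the large ribosomal subunit, was at 12.10 and 12.60 against 7.51 and 7.79 (-0.63 ± 0.11), and PNO1 completed the set.

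**Figure D5:**
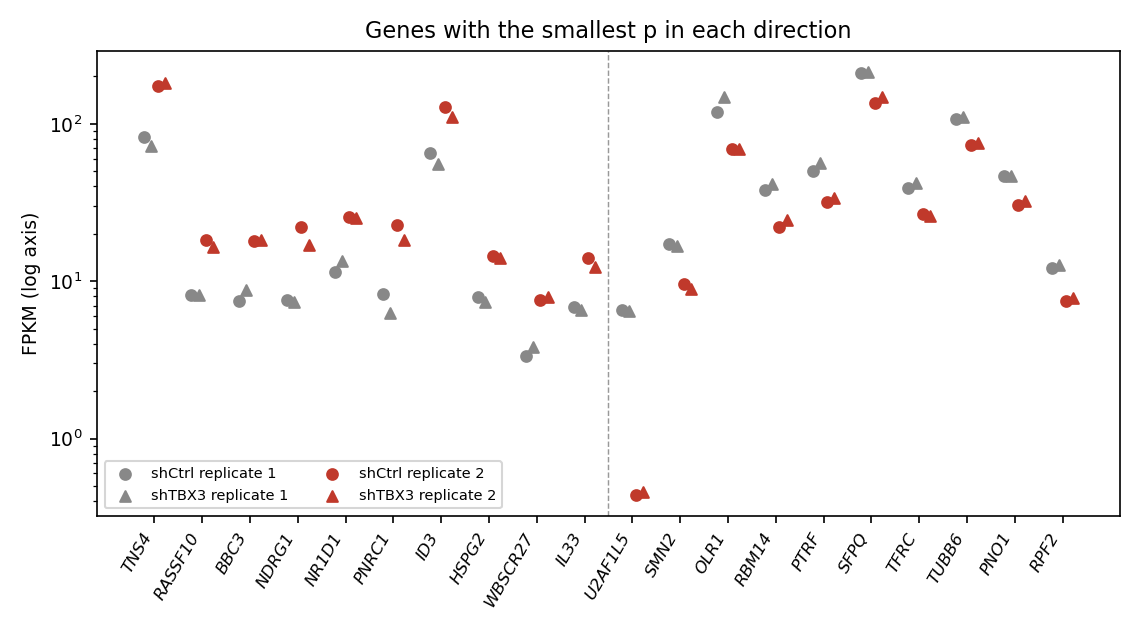
FPKM (log axis) of the 10 higher (left of the dashed line) and 10 lower (right) protein-coding genes of smallest p in each library, with replicate 1 in grey, replicate 2 in red, shCtrl as circles and shTBX3 as triangles. These genes were picked for this separation; the 2 libraries of a replicate number lie close together for each of them, and U2AF1L5 drops from above 6 to below 0.5 FPKM.

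With the hairpin as a second term, 16 of the 45 called genes were protein-coding, 15 higher and 1 lower, U2AF1L5. Besides TNS4, ID3, PNRC1, NR1D1, RASSF10, NDRG1, BBC3 and TJP3, the higher ones were H1F0, PRR15, AGR2, SELENBP1, HID1, YPEL3 and CDK18. H1F0, a linker histone of differentiated and resting cells, was at 38.62 and 48.25 against 80.69 and 99.77. YPEL3, a growth-suppressing gene, was at 5.76 and 4.14 against 22.31 and 11.59. AGR2, a protein disulfide isomerase of secretory epithelium, was at 176.64 and 110.61 against 322.19 and 204.26, and SELENBP1, a selenium-binding protein, at 87.52 and 51.88 against 175.58 and 94.88. For YPEL3, AGR2 and SELENBP1 the shCtrl values were above the shTBX3 values at each replicate number.

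The other 29 genes called with the hairpin as a second term were non-coding, 15 higher and 14 lower, and 24 of them were listed at 0 in both libraries of a replicate number. Almost all were microRNA and small nucleolar RNA genes on very few fragments. Short genes move in whole steps, from which a depth of about 8360000 to 8560000 fragments per library was read; of 27 of these genes with a known length, 23 were at no more than 3.5 fragments in every library, and the highest value was 7.0. SNORD95, the gene called with the replicate number as the only term (limma adjusted p = 0.0239), was at 0 and 0 FPKM against 8.68 and 8.76, which is 0 and 2 fragments. Its host gene RACK1 was at 1874.51 and 1857.59 against 1796.64 and 1949.70, with overlap. SNORD87 had the most fragments of those lower, at 14.95 and 20.85 against 5.82 and 5.88, or 5 and 7 against 2 and 2 fragments.

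Gene Ontology process terms as listed in the table, 569 of them with 15 to 200 tested genes, were ranked by the share of members at an unadjusted p under 0.05. The first on the higher side was embryonic organ morphogenesis, with 7 of 18 higher and 0 lower. Its higher members included homeobox genes, which pattern the body axis, such as HOXB8 (39.42 and 36.33 FPKM against 60.12 and 57.52) and HOXB3 (72.89 and 66.88 against 93.98 and 89.43). They also included HSPG2 and PCGF2, while the homeobox gene HOXB4 was on the lower side. The term named glycolytic process had 5 of 16 higher and 0 lower, but held regulators such as DDIT4, IER3 and MLXIPL (13.04 and 12.41 against 22.04 and 26.40) rather than the enzymes, whose own list had a median of 0.02. The first on the lower side was double-strand break repair via nonhomologous end joining, with 4 of 15 lower and 0 higher. Its lower members included antisense transcripts such as TTC28-AS1 and RAMP2-AS1. Also on that side were mitotic sister chromatid segregation, with 7 of 28 lower and 1 higher, and nucleus organization, with 4 of 16 lower and 0 higher. De novo posttranslational protein folding had 4 of 16 lower and 1 higher, and mRNA processing, ranked after these, 11 of 51 lower and 0 higher. These terms were chosen by these values, and their counts are a description.

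TBX3, the target of the hairpin, bears on the hairpin labels and not on the replicate numbers. In shCtrl it had 48.94 (replicate 1) and 54.77 FPKM (replicate 2), and in shTBX3 27.81 and 36.99. The difference between shTBX3 and shCtrl was -0.67 (limma adjusted p = 0.428). The replicate 2 value was the higher in each hairpin group, and the groups by replicate number overlapped. By replicate number, the difference was 0.28 ± 0.31 (limma adjusted p = 0.738).

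Several measures of the libraries moved with the replicate number, and their part in the results was not tested. MIR6723, a microRNA gene that the table matches to mitochondrial cytochrome c oxidase subunit 1, took 4.509% and 4.723% of the summed FPKM in replicate 1 and 6.771% and 6.018% in replicate 2. Over 11852 protein-coding genes with a GENCODE transcript, the difference correlated with GC content at Spearman's rho = 0.243 (0.127 within shCtrl and 0.303 within shTBX3). With transcript length, rho was 0.0518 and its sign differed between the hairpin groups (0.115 within shCtrl and -0.0308 within shTBX3). With a linear adjustment for GC content and length, the medians of these 5 lists kept their sign: 0.38 for ATF4 and amino acid genes, 0.36 for growth arrest, -0.37 for ribosome biogenesis, -0.24 for mitosis and -0.18 for heat shock chaperones. Not all lists kept theirs: glycolysis went from 0.02 to -0.02, oxidative phosphorylation from -0.02 to 0.03 and the 10 Notch targets tested from 0.17 to 0.00. Between 13674 and 13757 genes reached 1 FPKM in a library, and median-ratio factors ran from 0.992 to 1.01.

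Endothelial, red blood cell and fibroblast markers were low in all libraries, while the immune markers LYZ (14.56 to 16.51) and CD68 (5.30 to 8.24) were higher. The summed FPKM of 6 endothelial markers ran from 1.05 to 1.53 and that of 3 red blood cell markers from 0.06 to 0.40, with none tested. Of 4 fibroblast markers in the table, only PDGFRB was tested (1.04 and 0.39 against 2.41 and 1.39), and their sum was 1.22 and 0.65 in replicate 1 and 2.98 and 1.67 in replicate 2. Immune markers summed to between 22.98 and 24.68, nearly all of it LYZ and CD68. The labelled tissue, thyroid, had 2 of 8 follicle markers tested, PAX8 (1.54 and 1.20 against 1.86 and 1.88) and SLC5A5 (2.64 and 3.28 against 2.86 and 2.42). Colon epithelial markers were mixed in level. CDX2 was at 126.94 and 116.78 in replicate 1 and 147.75 and 131.83 in replicate 2. CDX1, FABP1, MUC2 and GPA33 were at or below 0.58 FPKM in every library and were not tested. Of 11 colon markers in the table, 7 were tested, with 2 higher without overlap and 0 lower. The list sums were 233.40 and 215.10 against 282.50 and 222.70.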

How the data were processed

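Values are FPKM as the authors deposited them. Per the submitters' processing notes, RSEM, Bowtie2 and HISAT were used with hg19; versions, each tool's role, the annotation release and strandedness are not given in these sources. The members, gene lists and tests were chosen with earlier results of these data known. From the deposited FPKM, log2(FPKM + 1) was tested with limma 3.58.1 in R 4.3.3 (lmFit, eBayes with an intensity trend, two-sided, Benjamini-Hochberg, threshold 0.05), with the replicate number as the only term. That fit had 2 residual degrees of freedom, a prior worth 3.33 and a median SE of 0.146. Libraries were paired across replicate numbers by their hairpin, so the fit with the hairpin as a second term is the paired one (45 genes called).

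The rule for named genes took up to 10 called protein-coding genes per direction, filled by smallest p without overlap whose higher replicate number averaged 5 FPKM or more, and TBX3. It also asked for members of lists whose called share was above the background. As 1 gene was called, no list met this, and GO terms were ranked by unadjusted p in place of calls. Lists were described by counts and medians. Promoter sequences are RefSeq's (GRCh38.p14), matched by symbol; lengths and GC content are from GENCODE. Depth was read from the whole steps of short genes. The offset and the depth were searched within preset ranges for the setting that made the most low values whole. With the offset found, 36 nucleotides, 77.6% to 88.2% of low values were whole within 0.05 fragments. Evenly spread values would give 10% at a single fixed setting, which is not the share for the best of many settings. Alternatives were other pseudocounts, filters, scalings and terms, and each library left out. Python 3.11.15 with numpy 2.4.6 and pandas 2.3.3 was used for the rest.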

Additional observations from a re-analysis of the deposited data

Results flagged for a closer look

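For 7 gene lists the median difference by replicate number had opposite signs in the 2 hairpin groups; these differences between the groups were not tested. Aminoacyl-tRNA synthetases stood at 0.22 within shCtrl and -0.06 within shTBX3. Keratins stood at 0.10 and -0.18. The values for oxidative phosphorylation genes encoded in the nucleus were -0.07 within shCtrl and 0.09 within shTBX3, and those for cytosolic ribosomal proteins -0.03 and 0.14. NF-kB and cytokine genes gave -0.04 and 0.08, p53 targets -0.06 and 0.08, and glycolysis genes 0.05 and -0.04, on the log2(FPKM + 1) scale throughout.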

How the results depend on the processing

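The number of genes called depended on the terms and the genes fitted. Limma called 1 gene with the replicate number alone, 45 in the paired fit with the hairpin as a second term, 24 without the intensity trend and 2 with median-ratio scaling. It called 0 with a pseudocount of 0.1, 0 over every gene above 0, between 0 and 2 with 1 library left out, and 1255 with the hairpin term over protein-coding genes (chosen after seeing the data); the cause was not tested. At an unadjusted p under 0.05, the 886 higher and 687 lower genes became 1540 and 1119 with the hairpin term and 1748 and 1234 with that term over protein-coding genes. With 1 library left out, between 363 and 914 were higher and between 366 and 532 lower, fewest in both directions without shCtrl replicate 2.

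The medians of the 6 leading lists kept their sign under every alternative run. The growth arrest median of 0.45 became 0.52 with a pseudocount of 0.1 and at FPKM of at least 5, 0.43 with quantile normalization, 0.36 after adjustment for length and GC content, 0.23 at a mean FPKM of at least 10, 0.22 with a pseudocount of 5 and 0.30 to 0.37 with 1 library left out. The ATF4 median of 0.43 became 0.23 with a pseudocount of 5. Mitosis went from -0.26 to -0.28 and -0.21 with pseudocounts of 0.1 and 5, -0.24 after the length and GC adjustment and -0.24 to -0.22 with 1 library left out. With 1 library left out, ribosome biogenesis ran from -0.44 to -0.26, DNA replication from -0.31 to -0.13 and heat shock chaperones from -0.28 to -0.11. TBX3 ran from -0.12 (without shTBX3 replicate 1) to 0.68 (without shCtrl replicate 1), around 0.28 in all libraries. Depth limits the genes on a few fragments, such as the small RNA genes given above; its part in the spread of other genes was not tested.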
